A study of Homo sapiens with 18 samples.

Results

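The comparison described here set 786-O cells labelled VHL+/+ against 786-O cells labelled VHL-/-, both carrying a scramble shRNA (SCR), a control hairpin. Its members were chosen by those labels and are 6 of the 18 arrays of the series, 3 VHL+/+ SCR and 3 VHL-/- SCR. The other 12 arrays hold the same pair of VHL genotypes with an shRNA against PBRM1 or against KDM5C, 3 arrays for each of 4 groups, and are used only for the spread, the chip and a repeat of the VHL contrast. 786-O is an established line from a human clear cell renal cell carcinoma (ccRCC), and the hairpins were stably expressed. No cells were treated. The labels give a genotype and not the way in which VHL was restored, and they do not say whether replicates were separate cultures, so that p-values measure the spread between these arrays, which may be technical.

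The VHL protein is the part of a ubiquitin ligase that recognises hydroxylated HIFα subunits and sends them for degradation. Without it HIFα accumulates, pairs with ARNT and switches on genes of hypoxia, such as those for angiogenic factors, glucose uptake, pH control and glycolysis. 786-O cells are known for making HIF2α, encoded by EPAS1, and no functional HIF1α. Interferon-stimulated genes, a second family examined below, are driven by ISGF3, a complex that holds STAT2 and IRF9, and encode antiviral proteins. The study asked how VHL, PBRM1 and KDM5C act on gene expression in ccRCC cells.

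Each array gave a log2 signal for 13141 genes, quantile-normalized over the arrays. Chip 1 carried replicates 1 and 2 of each group and chip 2 carried replicate 3, and a chip effect passed limma's adjusted p of 0.05 in 3130 genes (23.8%). Within an SCR group, arrays correlated with r of 0.9851 to 0.9943 over the genes, which do not count as independent replicates. The line's defining markers PAX8, VIM, KRT8, KRT18 and CDH2 had a mean log2 signal of 10.33 to 10.36 on VHL-/- and 10.35 to 10.49 on VHL+/+ arrays, and 0 of these 5 were called. Of the markers of other cell types, 5 of 10 fibroblast genes, 2 of 8 endothelial genes and 5 of 12 leukocyte genes were measured, and 0 were called. LUM of the fibroblast list (log2 fold change 0.53, adjusted p = 0.0218 by limma) and CD68 of the leukocyte list (-0.44, 0.0231) passed the adjusted p short of 1.5-fold, and their part in the results was not tested. The mean log2 signals of the lists were 7.20 to 7.43 and 7.32 to 7.47 for fibroblasts, 6.62 to 6.80 and 6.66 to 6.81 for endothelium, and 7.13 to 7.22 and 6.98 to 7.16 for leukocytes, VHL-/- first. Such bulk signals cannot tell fewer cells of a type from less RNA per cell.

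VHL mRNA itself did not separate the groups. It measured 7.64, 7.82 and 7.85 on VHL-/- replicates 1 to 3 and 7.78, 7.84 and 7.92 on VHL+/+ replicates 1 to 3, a difference of 0.08 on the log2 scale (limma, standard error 0.087 and adjusted p = 0.766). The arrays of the groups overlapped, so the direction of every change below rests on the labels. EPAS1 had a log2 fold change of 0.38 (adjusted p = 0.443), ARNT of 0.14 (0.388) and EGLN1, a prolyl hydroxylase that marks HIFα for VHL, of -0.10 (0.658), none of them called. Of the 14 measured genes of the HIF pathway machinery 0 were called, and 1 passed the adjusted p of 0.05 upward, short of 1.5-fold. The largest value was that of CITED2, a HIF-induced inhibitor of HIF's coactivator, at 0.46 (adjusted p = 0.0737).

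With VHL, 135 genes changed at adjusted p under 0.05 and by at least 1.5-fold, which is 1.03% of all genes and is what called means here. Of these, 90 were lower (0.685% of all genes) and 45 higher (0.342%), so falls outnumbered rises. They were also larger: at 2-fold or more the counts were 34 and 6, and without a fold threshold 249 (1.89% of all genes) and 171 (1.3%). The volcano plot shows these genes against all others. For 131 of the 135 called genes the 3 VHL+/+ arrays did not overlap the 3 VHL-/- arrays once the chip effect was removed, and this held for 25.1% of all genes. For a single gene, 3 arrays against 3 allow no exact permutation p below 0.1, so the calls lean on limma's estimate of the spread. That estimate was pooled over all 18 arrays, but with only the 6 SCR arrays 132 of the 135 genes were still called.

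**Figure D1:**
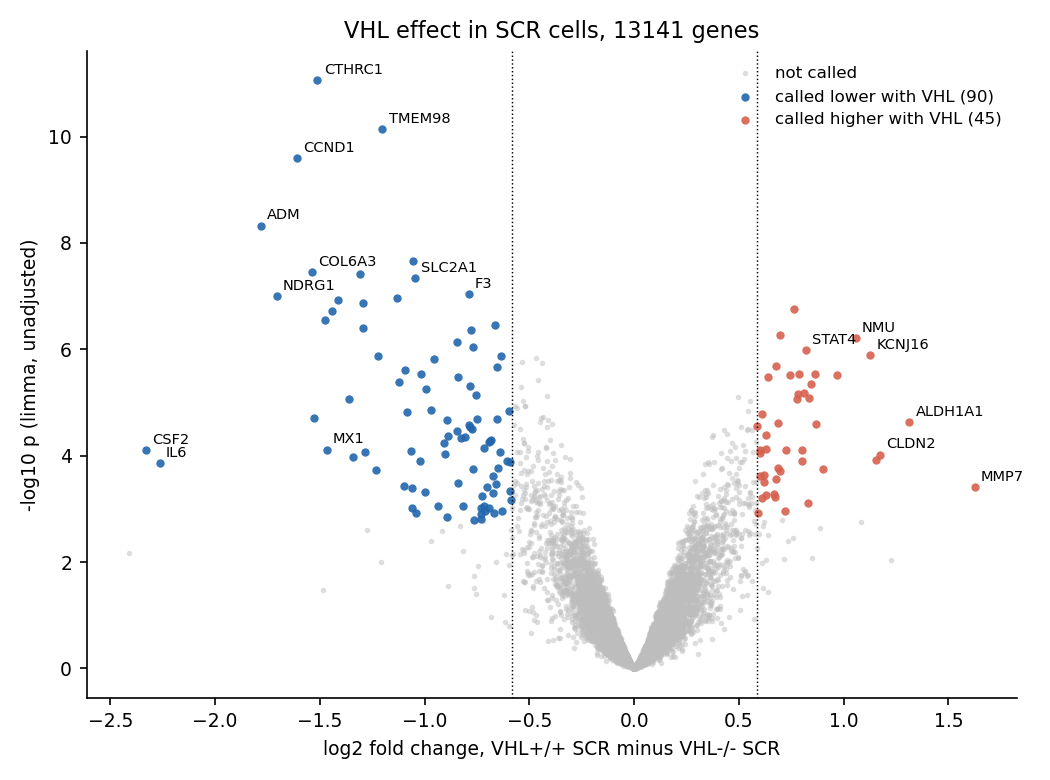
Each point is 1 of 13141 genes, with the log2 fold change with VHL in SCR cells on the x axis and -log10 of limma's unadjusted p on the y axis; dotted lines mark a 1.5-fold change. The 90 genes called lower (blue) reach further from 0 than the 45 called higher (red), down to -2.33 for CSF2 against 1.62 for MMP7, and the gray point at -2.41 is IL8.

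Targets of HIF were lower in VHL+/+ cells. Of 48 measured genes in 3 lists of HIF targets, 10 were called lower and 0 higher, 40 of 48 had a log2 fold change below 0, and the median was -0.25. Over all genes 0.685% were called lower, 50.1% were below 0 and the median was -0.0002. Each chip gave a similar median for the lists, -0.22 on chip 1 and -0.20 on chip 2. Without the chip term 4 of the 10 were called. VEGFA, CA9 and HIF1A have no row in the table and were not analysed here.

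The secreted HIF targets were led by ADM, which encodes the vasodilator peptide adrenomedullin. ADM measured 11.71, 11.76 and 11.74 on the VHL-/- arrays and 9.84, 9.65 and 10.37 on the VHL+/+ arrays. All VHL+/+ arrays lay well below all VHL-/- arrays, a 3.44-fold difference (log2 fold change -1.78, standard error 0.16, adjusted p = 1.54e-05 by limma). STC1, a hormone of calcium and phosphate handling, measured 8.40, 8.26 and 8.83 without VHL and 7.17, 7.06 and 7.19 with it. Its groups were apart as well, by 2.56-fold (adjusted p = 0.00209).

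Among HIF targets of the membrane and metabolism, CA12, a carbonic anhydrase of the cell surface that takes part in pH control, measured 10.48, 10.49 and 10.42 on VHL-/- and 8.63, 8.97 and 9.37 on VHL+/+ arrays. The 3 VHL-/- arrays were nearly equal, and the VHL+/+ arrays were lower and more spread, and the difference of -1.47 on the log2 scale had a standard error of 0.18 (adjusted p = 0.000228 by limma). SLC2A1, the glucose transporter GLUT1, measured 11.97, 11.97 and 12.19 without VHL and 11.06, 11.02 and 10.91 with it. It fell on both chips, by 0.93 on chip 1 and by 1.28 on chip 2, and did not overlap between groups. NT5E, the ectonucleotidase CD73, fell by 0.69, and PLIN2, which coats lipid droplets, by 0.59. Its call was lost on omission of VHL+/+ replicate 2 (adjusted p = 0.054), VHL-/- replicate 1 (0.0694) or VHL-/- replicate 2 (0.065).

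The 3 called HIF targets of signalling and survival were NDRG1, CCND1 and DDIT4. CCND1, the cyclin D1 that drives cells through G1, measured 11.18, 11.16 and 11.04 on VHL-/- and 9.46, 9.55 and 9.54 on VHL+/+ arrays. The arrays of each group were close together and far from the other group, a 3.05-fold difference with the small standard error of 0.12 (adjusted p = 1.12e-06 by limma). NDRG1, a stress-induced gene, measured 10.67, 10.33 and 11.86 without VHL and 8.88, 8.68 and 10.19 with it. Replicate 3 of each group, on chip 2, was the highest, and the difference was nevertheless alike on chip 1 (-1.72) and chip 2 (-1.67). Without the chip term NDRG1 was not called (adjusted p = 0.347). DDIT4, an inhibitor of mTORC1 that hypoxia induces, fell by 0.97 (adjusted p = 0.00289), with raw arrays that overlapped and chip-corrected arrays that did not.

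CCND1 was the exception among the 19 measured G1 cyclins, kinases and inhibitors, of which no other was called and whose median was 0.02. E2F2, next by size in that list, had a log2 fold change of -0.31 (adjusted p = 0.194). Of 38 genes of replication and mitosis 0 were called, with a median of 0.08 on chip 1 and -0.31 on chip 2. Of 18 glycolytic genes, 1 was called lower, where 0.685% of all genes were. It was ENO2, the neuronal form of enolase, which measured 8.23, 8.37 and 8.56 without VHL and 7.09, 7.14 and 7.53 with it (log2 fold change -1.13, adjusted p = 0.000129 by limma). The groups of ENO2 did not overlap. ALDOA, an aldolase, passed the adjusted p (0.00198) with a change of -0.42, short of 1.5-fold, and the median of the glycolytic list was -0.12. Of 71 genes of the respiratory chain and ATP synthase 0 were called, with a median of 0.01.

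Promoter sequence is shown for 3 of the called genes of hypoxia because it holds the core of the hypoxia response element, ACGTG, to which HIF binds. The sequences are RefSeq's for GRCh38.p14, read on the strand of the gene within the 250 bases before its start, with the matches on either strand in capitals. They lie at chr12:6914447-6914481 (ENO2, plus strand), chr10:72273784-72273818 (DDIT4, plus strand) and chr9:19127541-19127627 (PLIN2, minus strand).
ENO2: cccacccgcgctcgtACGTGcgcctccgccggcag
DDIT4: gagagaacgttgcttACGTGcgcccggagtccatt
PLIN2: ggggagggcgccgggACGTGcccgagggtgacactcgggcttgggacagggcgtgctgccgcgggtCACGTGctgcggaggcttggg
ACGTG stood in 18.5% of all 35116 such windows. A window was matched by symbol for 62 of the 90 genes called lower, of which 20 (32.3%) held it, and for 32 of the 45 called higher, of which 9 (28.1%) held it. By symbol, 21.7% of all 27305 genes held it. Of the 7 matched genes of the HIF target and glycolysis lists that were called lower, 3 held it (42.9%), the 3 shown, and of the 33 matched HIF targets that were not called, 20 did (60.6%). The match describes these letters only, and HIF binding was not measured.

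Interferon-stimulated genes were the largest called group by list. Of 78 measured members 21 were called lower and 0 higher, where 0.685% of all genes were called lower. The median of the list was -0.38 and 70 of 78 were below 0, where 50.1% of all genes were. MX1, a dynamin-like GTPase against viruses, had the largest fall. It measured 10.62, 10.41 and 9.67 on VHL-/- and 8.48, 8.48 and 9.35 on VHL+/+ arrays. The groups did not overlap, but replicate 3 of each, on chip 2, lay closest to the other group. By limma its difference was -1.47 on the log2 scale, with a standard error of 0.28 and an adjusted p of 0.00854, and it came to -2.04 on chip 1 and -0.32 on chip 2. Its call was lost on omission of VHL+/+ replicate 1 (adjusted p = 0.0561), VHL-/- replicate 1 (0.0593) or VHL-/- replicate 2 (0.0526).

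The called members spanned several functions of the antiviral state. Among effectors, IFIT1, which binds foreign RNA, fell by 1.02 and IFIT3 by 0.77 on the log2 scale. The 2'-5' oligoadenylate synthases OAS1, OAS2 and OAS3, which activate an RNA-degrading enzyme, fell by 0.78, 0.73 and 0.77. In the ISG15 pathway of protein tagging, ISG15, the ubiquitin-like tag, measured 12.07, 11.94 and 11.42 without VHL and 10.54, 10.70 and 10.99 with it. Again no VHL+/+ array reached a VHL-/- array, and the pair on chip 2 was the closest (adjusted p = 0.00861). HERC5, the ligase that attaches ISG15, measured 9.93, 10.15 and 9.77 without VHL and 8.50, 8.70 and 8.79 with it. It fell on both chips, by 1.44 and 0.98. UBE2L6, the conjugating enzyme of the same pathway, fell by 0.69.

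IFIH1, the cytosolic RNA sensor MDA5, measured 9.66, 9.60 and 9.20 on VHL-/- and 8.58, 8.68 and 8.94 on VHL+/+ arrays. Its groups did not overlap (log2 fold change -0.75, adjusted p = 0.00194 by limma). PARP9 and DTX3L, which work as a pair in interferon signalling, fell by 0.59 and 0.90. The remaining called members were EPSTI1 (-1.10), ISG20, an exonuclease (-1.06), IFI6 (-0.94), IFI35 (-0.91), MX2 (-0.84), SAMD9L (-0.72), SAMD9 (-0.63), PLSCR1 (-0.61) and the nuclear body gene SP110 (-0.60). On the chip 2 pair of arrays MX2 (0.02), OAS2 (0.11) and PARP9 (0.04) had the opposite sign.

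STAT2 and IRF9, subunits of ISGF3, were not called. STAT2 had a log2 fold change of -0.41 (adjusted p = 0.323 by limma), with -0.69 on chip 1 and 0.13 on chip 2. IRF9 measured 9.88, 10.04 and 9.97 without VHL and 9.46, 9.46 and 9.50 with it. The groups of IRF9 did not overlap and its difference was alike on both chips (-0.50 and -0.47), yet the adjusted p was 0.0896.

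The interferon calls depended on single arrays and on the chip. Of the 21, 2 (OAS1 and IFIH1) stayed called whichever SCR array was left out, against 8 of the 10 HIF targets. Leaving out 1 VHL+/+ array kept 4 (replicate 1), 9 (replicate 2) or 15 (replicate 3) of the 21 calls. Leaving out 1 VHL-/- array kept 4 (replicate 1), 4 (replicate 2) or 20 (replicate 3). The median of the whole list was -0.52 on chip 1 and -0.12 on chip 2. The mean log2 signal of the 21 genes was 9.65, 9.62 and 9.13 on the VHL-/- arrays and 8.47, 8.48 and 8.84 on the VHL+/+ arrays, so that the replicates on chip 2 lay nearer to each other. Chip 2 and replicate 3 cannot be told apart. Without the chip term 10 of the 21 were called.

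Promoters of 4 interferon genes called lower are shown for the core of the interferon-stimulated response element, which is GAAA, then any 2 bases, then GAAA, and which ISGF3 recognises. They lie at chr4:88456979-88457069 (HERC5, plus strand), chr1:1013369-1013414 (ISG15, plus strand), chr13:42992267-42992306 (EPSTI1, minus strand) and chr10:89392492-89392544 (IFIT1, plus strand), read on the strand of the gene. Capitals mark the matches, which in HERC5 and IFIT1 are the reverse complement.
HERC5: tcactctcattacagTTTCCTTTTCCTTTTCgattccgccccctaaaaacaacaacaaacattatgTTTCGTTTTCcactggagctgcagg
ISG15: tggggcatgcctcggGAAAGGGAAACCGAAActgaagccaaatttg
EPSTI1: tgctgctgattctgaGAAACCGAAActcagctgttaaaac
IFIT1: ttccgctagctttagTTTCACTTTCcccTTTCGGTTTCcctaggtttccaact
The core stood in 3.02% of all windows and 3.71% of all symbols. Of the 19 matched interferon genes called lower 13 held it (68.4%), and of the 41 matched members that were not called 23 did (56.1%), so it was common in both. It was in 14 of the 62 matched genes called lower and in 0 of the 32 called higher.

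Inflammatory cytokines and NF-kB targets had the lowest median of the lists, -0.43 over 31 measured genes, of which 3 were called lower, 0 higher and 28 lay below 0. Over all genes 0.685% were called lower and 50.1% lay below 0. CSF2, the growth factor GM-CSF, measured 10.34, 10.42 and 9.38 without VHL and 7.46, 7.38 and 8.30 with it. IL6, an inflammatory cytokine, measured 11.95, 11.92 and 10.75 without VHL and 9.06, 8.95 and 9.81 with it. In both genes the groups did not overlap, and chip 2 held the lowest VHL-/- and the highest VHL+/+ array, so that the log2 fold change was -2.96 on chip 1 and -1.08 on chip 2 for CSF2 and -2.92 and -0.95 for IL6. CCL5, a chemokine, measured 8.33, 8.28 and 8.44 without VHL and 7.53, 7.66 and 7.48 with it. It had no such gap between chips and stayed called without each array (log2 fold change -0.79, adjusted p = 0.00433 by limma).

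IL8, named after its values were seen, had the lowest log2 fold change of all genes and was not called. It measured 13.39, 13.30 and 12.57 on VHL-/- and 9.98, 9.81 and 12.24 on VHL+/+ arrays. VHL+/+ replicate 3 lay far above the other VHL+/+ arrays, and the value of -2.41 carried a standard error of 0.77 (adjusted p = 0.111 by limma). For the list as a whole the median was -0.63 on chip 1 and -0.10 on chip 2. The call of CSF2 was lost on omission of VHL+/+ replicate 1 (adjusted p = 0.0586), and that of IL6 on omission of any 1 of the 4 arrays of chip 1 (0.057 to 0.0744).

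**Figure D2:**
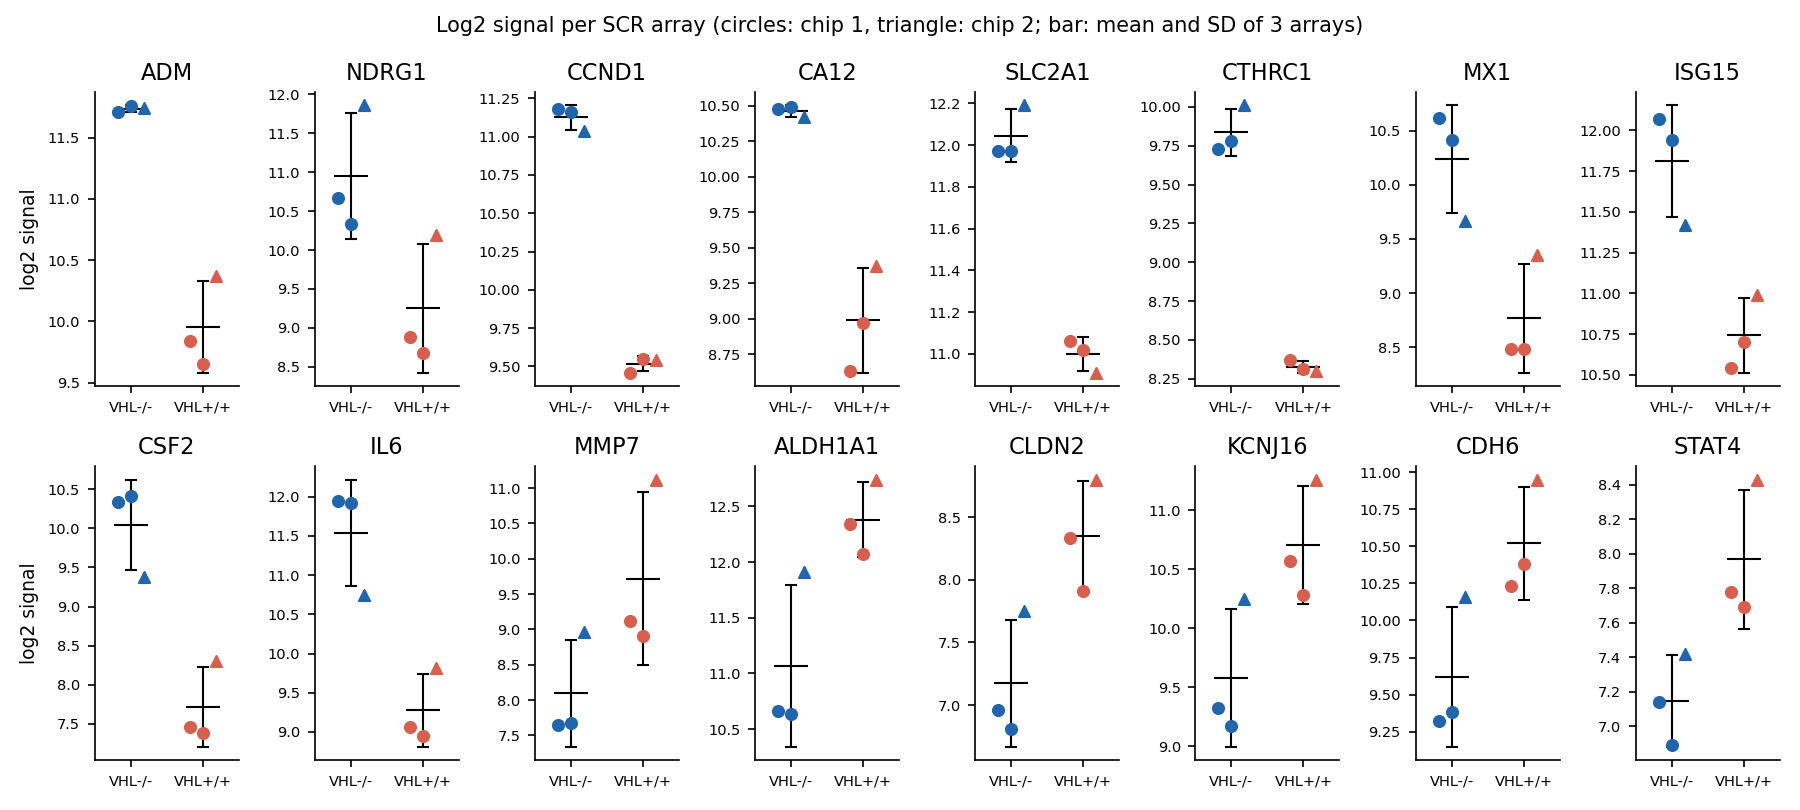
Log2 signal of 16 called genes on the 6 SCR arrays, with circles for chip 1, a triangle for chip 2 and bars for the mean and SD of 3 arrays; each panel has its own y axis, which does not start at 0. CCND1, CTHRC1 and SLC2A1 form tight and separate groups, while in MX1, ISG15, CSF2 and IL6 the chip 2 arrays of the groups lie closer together than the chip 1 arrays, and in MMP7, ALDH1A1, CLDN2 and KCNJ16 chip 2 is the higher in both groups.

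Called lower as well were 59 genes that are in neither the HIF nor the interferon lists, with a median of -0.84. They include CSF2, IL6, CCL5 and ENO2, which are described above. CTHRC1, a secreted protein of remodelling matrix, measured 9.73, 9.78 and 10.01 without VHL and 8.37, 8.31 and 8.30 with it. Its groups were far apart, with a standard error of 0.088 and an adjusted p of 1.14e-07 by limma. COL6A3, a chain of collagen VI, measured 9.07, 8.98 and 9.21 without VHL and 7.60, 7.45 and 7.60 with it (log2 fold change -1.54). Its arrays did not overlap, and its difference was alike on both chips (-1.50 and -1.61). APCDD1L fell by 1.31 and LCP1, which bundles actin filaments, by 1.41, and both stayed called without each array.

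SCG5, a chaperone of neuroendocrine secretion, fell by 1.53, by 1.94 on chip 1 and by 0.71 on chip 2. C15ORF48 fell by 1.34, a call lost on omission of VHL+/+ replicate 1 (adjusted p = 0.0665) or VHL-/- replicate 1 (0.0659). XAGE1A, a cancer-testis antigen, measured 8.25, 8.11 and 8.20 without VHL and 6.82, 6.75 and 6.66 with it. Its groups were apart, but it is 1 of several near-identical gene copies, whose signals the probes may not separate. VEGFC, a growth factor of lymphatic vessels, was the 1 called of 36 growth factor genes (-0.59, adjusted p = 0.0246 by limma), where 0.685% of all genes were called lower. It was not called in 5 of the 6 cases with an array left out, with adjusted p up to 0.118. JAG1, a Notch ligand, had the largest value in that list, 1.08, and missed the threshold (adjusted p = 0.0541). PLAUR, the urokinase receptor, fell by 0.70, a call lost on omission of any 1 of the 4 arrays of chip 1 (adjusted p 0.0723 to 0.13).

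Of 23 measured genes of kidney tubule identity and transport 3 were called higher and 0 lower, where 0.342% of all genes were called higher. The members did not move one way: 14 lay above 0 and 9 below, the median was 0.03, and at any fold 5 passed the adjusted p upward and 2 downward. ANPEP, a brush border peptidase of the proximal tubule named after its values were seen, had the lowest log2 fold change of the list, -0.57 (adjusted p = 0.0197 by limma), short of 1.5-fold. KCNJ16, a potassium channel subunit of the distal tubule, measured 9.32, 9.17 and 10.25 on VHL-/- and 10.57, 10.28 and 11.26 on VHL+/+ arrays. The VHL+/+ array was the higher on each chip, and the groups did not overlap (log2 fold change 1.13, adjusted p = 0.000653 by limma). CDH6, a cadherin of the proximal tubule, measured 9.32, 9.38 and 10.16 without VHL and 10.23, 10.38 and 10.95 with it. Its groups were close but did not overlap, and the call (0.90) was lost on omission of any 1 of the 4 arrays of chip 1 (adjusted p 0.0528 to 0.0673).

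ALDH1A1, which makes retinoic acid, measured 10.66, 10.64 and 11.91 without VHL and 12.34, 12.07 and 12.74 with it. Its lowest VHL+/+ array stood just above the highest VHL-/- array, and the log2 fold change was 1.31 (adjusted p = 0.00415 by limma). CLDN2, a claudin that forms cation pores in the proximal tubule, was the 1 called of 22 junction, keratin and mesenchymal genes, where 0.342% of all genes were called higher. It measured 6.96, 6.81 and 7.75 without VHL and 8.33, 7.91 and 8.80 with it, without overlap. Its call was lost on omission of VHL+/+ replicate 1 (adjusted p = 0.0664) or VHL-/- replicate 2 (0.0502). CLDN1, another claudin, had -0.76 and was not called (adjusted p = 0.287).

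Of 46 genes of extracellular matrix, integrins and proteases 3 were called higher and 1 lower, with a median of 0.0019. Over all genes 0.342% were called higher and 0.685% lower. MMP7, the protease matrilysin, measured 7.65, 7.67 and 8.97 without VHL and 9.12, 8.91 and 11.12 with it. This was the largest called rise (log2 fold change 1.62), but its raw arrays overlapped, and no call was left when any 1 SCR array was omitted (adjusted p 0.0519 to 0.102). LAMA5 and LAMB1, laminin chains of the basement membrane, rose by 0.80 and 0.63 and stayed called without each array. CFI, a protease that inactivates complement, was the 1 called of 19 complement and acute phase genes (1.16, adjusted p = 0.0109), a call lost on omission of VHL+/+ replicate 1 (0.0696) or VHL-/- replicate 1 (0.0527). AKR1B10, an aldo-keto reductase, was called with ALDH1A1 among 30 NRF2, aldehyde and xenobiotic genes (0.83, adjusted p = 0.0323). That call was lost on omission of any of 5 of the 6 arrays (adjusted p 0.0524 to 0.175).

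Other rises were those of NMU, a neuropeptide, which measured 7.96, 7.85 and 8.70 without VHL and 9.17, 9.26 and 9.25 with it. The VHL+/+ arrays of NMU were nearly equal and above all VHL-/- arrays (log2 fold change 1.06, adjusted p = 0.000388 by limma). STAT4, a transcription factor of cytokine signalling, measured 7.14, 6.89 and 7.42 without VHL and 7.78, 7.69 and 8.43 with it. It rose on both chips, by 0.72 and 1.01. SEMA3A, an axon guidance factor, rose by 0.87, LRCH2 by 0.86, TNFRSF21, a death receptor, by 0.84, C10ORF65, whose current symbol is HOGA1, by 0.83 and ALDH2, the mitochondrial aldehyde dehydrogenase, by 0.81. These 5 stayed called without each array. ZNF394, a zinc finger protein, rose by 0.97, by 1.22 on chip 1 and by 0.48 on chip 2. Without the chip term 13 of the 45 rises were called, and those lost included KCNJ16 (adjusted p = 0.383), ALDH1A1 (0.15), CLDN2 (0.248), CDH6 (0.315), LAMA5 (0.498) and MMP7 (0.566).

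In 2 further metabolic lists 0 genes were called: sterol and fatty acid synthesis, with 26 measured and a median of -0.11, and the ATF4 response and serine synthesis, with 29 measured and a median of -0.03. In the former MVD had -0.45 (adjusted p = 0.0763 by limma). In the latter TRIB3 had -0.59 (0.0668) and SLC7A5 -0.55 (0.0474), short of 1.5-fold. In the plot of the lists, the HIF, interferon and inflammatory lists had the lowest medians. The direction of the calls, few in each of the following lists, was not the same. Of 31 inflammatory genes 3 were called lower, while of 23 kidney tubule genes, whose median was 0.03, 3 were called higher. Of 46 matrix, integrin and protease genes 3 were called higher and 1 lower. Over all genes 0.685% were called lower and 0.342% higher.

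**Figure D3:**
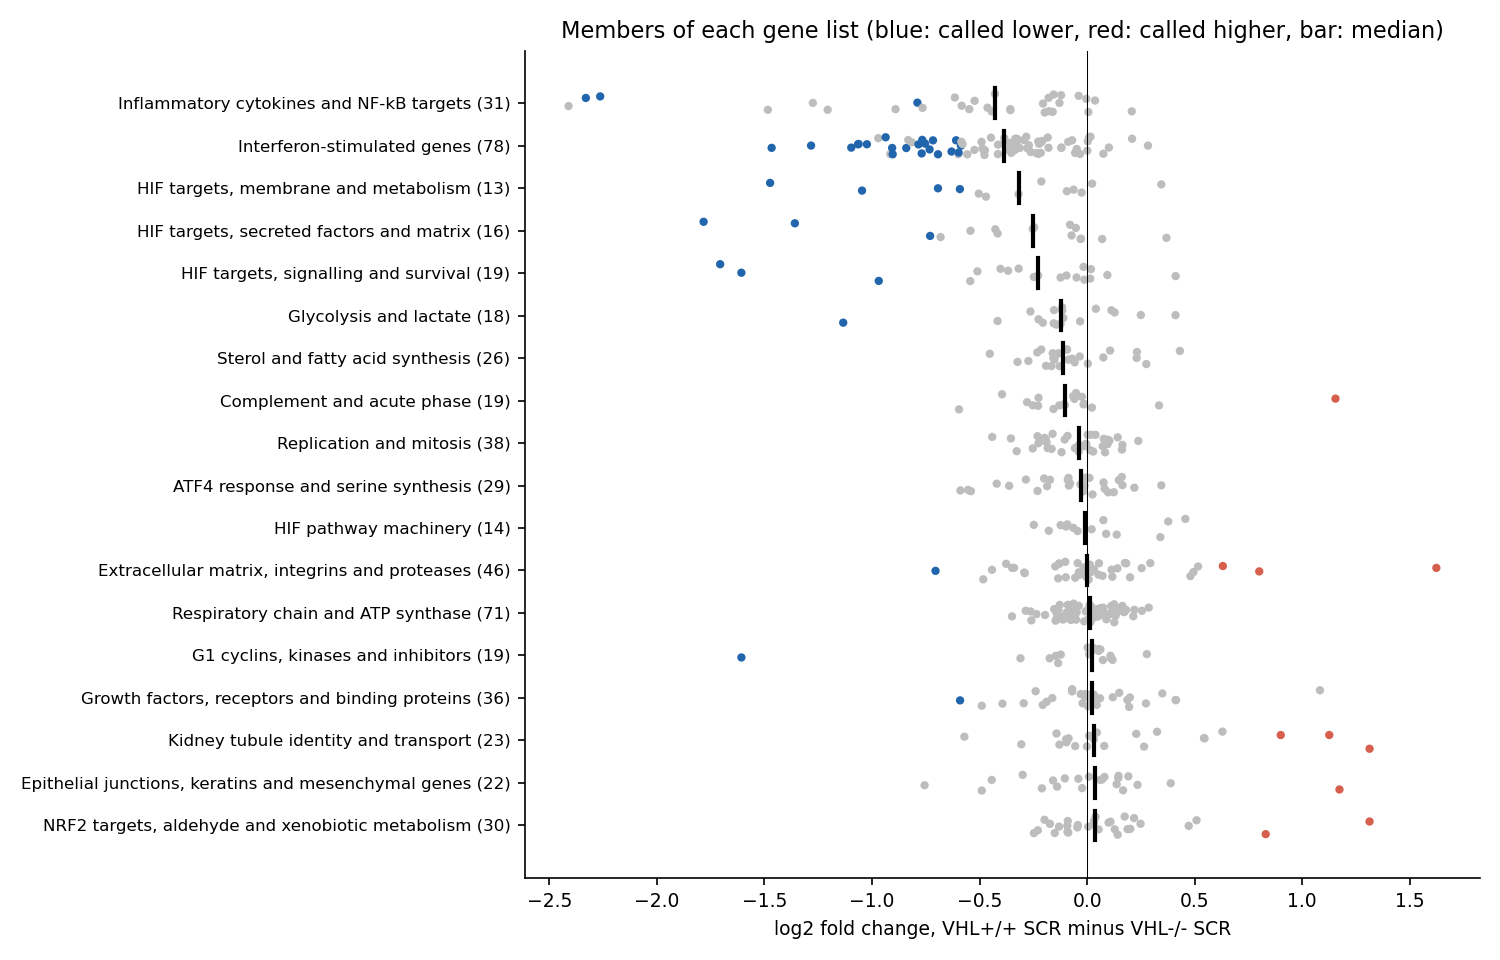
Each point is a gene, with its log2 fold change with VHL in SCR cells on the x axis and a row for each list except the cell type marker lists (measured members in brackets); the vertical bar is the median, blue marks genes called lower and red genes called higher. The inflammatory, interferon and HIF target lists lie to the left of 0, with medians of -0.43 and -0.38 for the inflammatory and interferon lists, and the remaining medians drawn lie between -0.12 and 0.04.

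The VHL contrast was repeated in cells with PBRM1 or KDM5C shRNA, on arrays that the SCR comparison does not share. There 134 and 117 genes were called, 1.02% and 0.89% of all genes. Of the 90 genes lower with VHL in SCR cells 83 were below 0 in each shRNA contrast, where 48.4% and 48.9% of all genes were below 0. In the PBRM1 shRNA contrast 39 of them were called lower, where 0.51% of all genes were, and these are 43.3% of the 90 and 58.2% of the 67 called lower there. In the KDM5C shRNA contrast 38 were, where 0.563% of all genes were, 42.2% of the 90 and 51.4% of 74. Of the 45 genes higher with VHL, 44 and 41 were above 0, and 25 and 21 were called higher, where 0.51% and 0.327% of all genes were, 55.6% and 46.7% of the 45 and 37.3% and 48.8% of the 67 and 43 called there. In all 3 contrasts 33 genes were called lower and 18 higher.

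HIF targets and interferon genes differed in this repeat. All 10 HIF targets called lower in SCR cells were called lower with PBRM1 shRNA and 9 with KDM5C shRNA, and their median was -1.20 in SCR, -1.33 in PBRM1 shRNA and -1.30 in KDM5C shRNA cells. ADM fell by 1.94 and 2.06 there, NDRG1 by 1.77 and 2.28 and CCND1 by 1.62 and 1.65. Of the 21 interferon genes 1 was called lower in each shRNA contrast, and their median was -0.78 in SCR, -0.17 in PBRM1 shRNA and -0.11 in KDM5C shRNA cells. HERC5 was that 1 gene, at -1.12 and -1.09. MX1 had -0.27 and -0.31 (adjusted p 0.772 and 0.694 by limma), and UBE2L6, PARP9 and DTX3L lay slightly above 0 in both. These 21 genes were called on the SCR arrays, which favours larger values there.

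**Figure D4:**
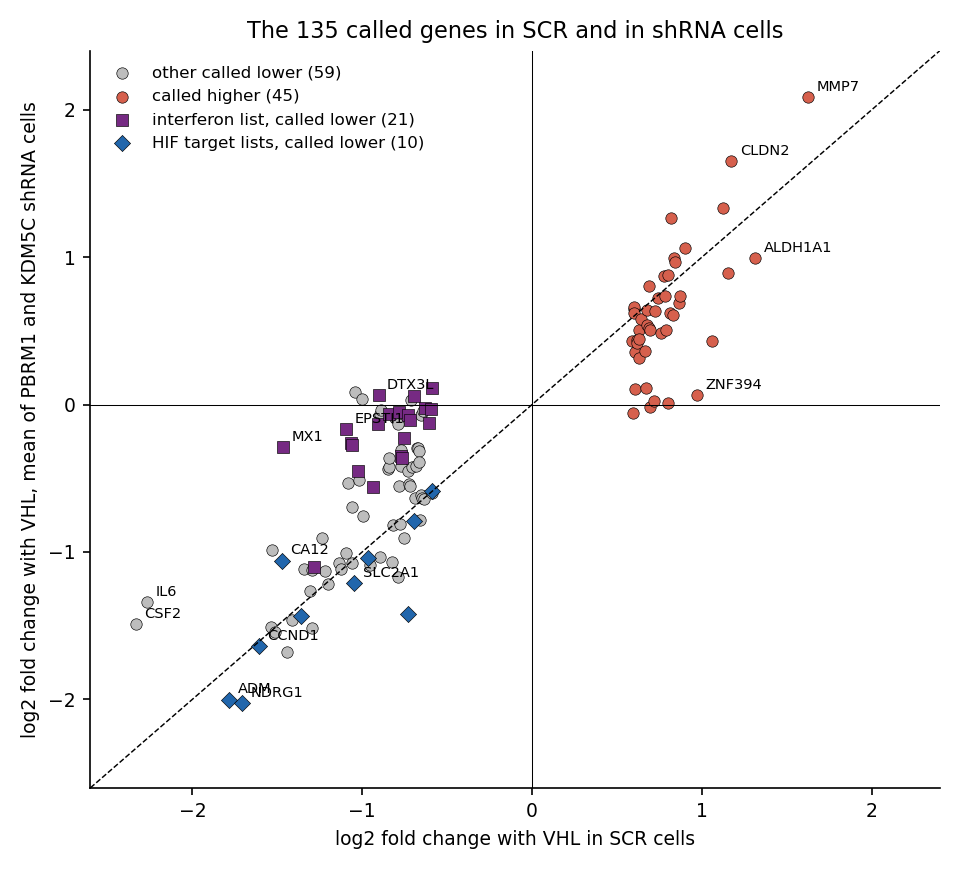
The 135 called genes, with the log2 fold change with VHL in SCR cells on the x axis and its mean over the PBRM1 and KDM5C shRNA contrasts on the y axis; the dashed line marks equal change. HIF targets (diamonds) lie near or below the line, most interferon genes (squares) lie near 0 on the y axis, and nearly all genes called higher (red) are above 0 in both.

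The difference between the VHL effect in SCR cells and its mean in the shRNA cells was tested for each gene. In limma's test 0 genes (0%) passed an adjusted p of 0.05, and 808 (6.15%) had an unadjusted p under 0.05, where chance gives 657. Of all genes 3.24% had an unadjusted p under 0.05 with a difference below 0, and in the interferon list 42 of 78 did. The count of genes that differed was 20 on chip 1 alone, 14 of them in the interferon list, and 33 with VHL-/- SCR replicate 3 left out, 19 of them in that list. It was 2 (TMEM17 and CD69) with VHL+/+ SCR replicate 3 left out. That the VHL effect on interferon genes is larger in SCR cells was therefore not established gene by gene on all 18 arrays.

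By level, the 10 HIF targets had a mean log2 signal of 10.76 ± 0.10 (SD, n = 3) on VHL-/- SCR and 9.57 ± 0.19 on VHL+/+ SCR arrays, and both shRNAs gave 10.87 and 11.02 without VHL and 9.59 and 9.66 with it. The 21 interferon genes were at 9.47 ± 0.29 on VHL-/- SCR and 8.60 ± 0.21 on VHL+/+ SCR arrays, and at 8.26, 8.35, 8.03 and 8.16 in the 4 shRNA groups. All SCR arrays were above the shRNA group means for these genes, but single arrays overlapped. VHL-/- PBRM1 shRNA replicate 3, at 8.60, was above VHL+/+ SCR replicates 1 and 2 (8.47 and 8.48). The genes were picked on the SCR arrays, so these levels are a description.

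**Figure D5:**
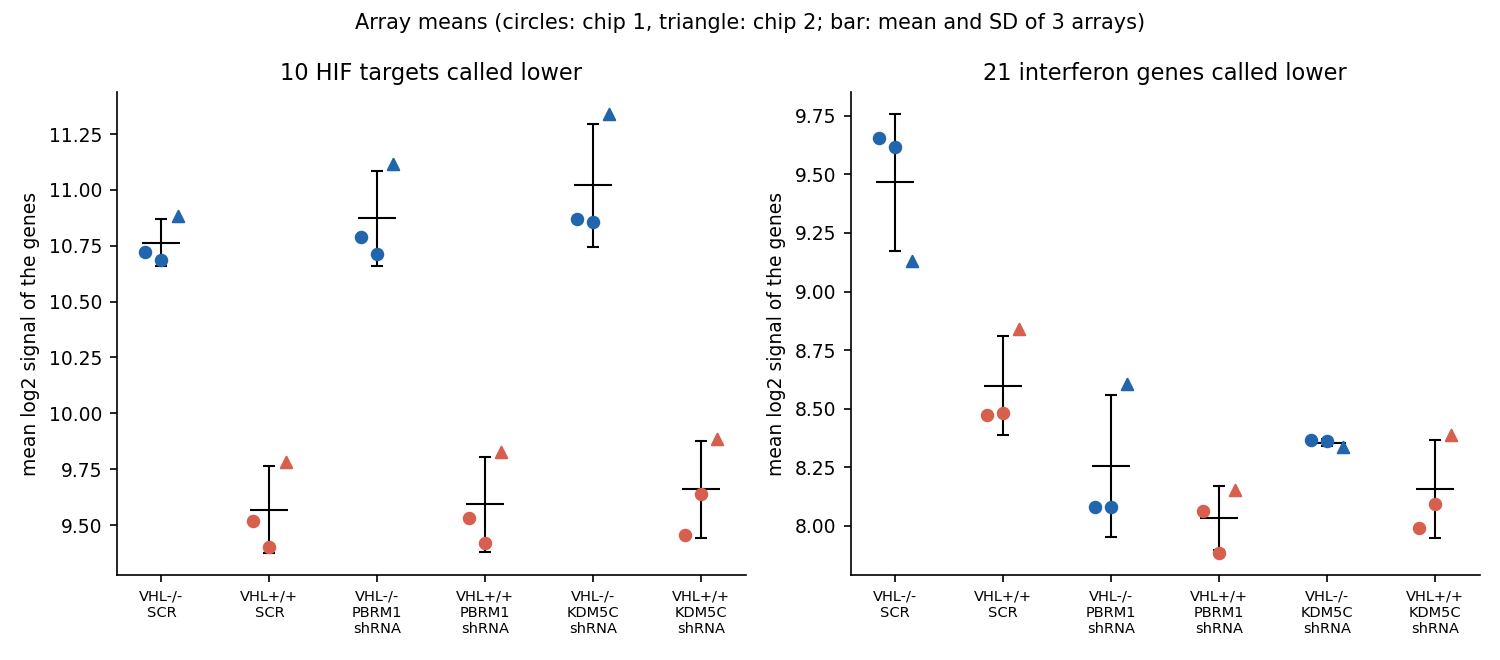
Mean log2 signal per array of the 10 HIF targets (left) and the 21 interferon genes (right) called lower with VHL in SCR cells, over the 6 groups; circles are chip 1, triangles chip 2 and bars the mean and SD of 3 arrays, and the y axes do not start at 0. HIF targets step down with VHL in each pair of groups, from 10.76 to 9.57 in SCR cells. The interferon genes are highest on the VHL-/- SCR arrays (mean 9.47) and have group means of 8.03 to 8.35 with the shRNAs, where single arrays reach from 7.88 to 8.60.

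Among called genes outside the lists, named after their values were seen, TMEM98 and F3 were lower in all 3 contrasts. TMEM98, a membrane protein, measured 8.17, 8.12 and 8.12 without VHL and 6.77, 7.08 and 6.94 with it in SCR cells (log2 fold change -1.20, adjusted p = 4.7e-07 by limma), and fell by 1.17 and 1.27 in the shRNA cells. F3, the tissue factor that starts coagulation, fell by 0.79 in SCR cells and by 1.05 and 1.29 in the shRNA cells. SFTA1P and LASP1, by contrast, fell by 0.89 and 0.64 in SCR cells and had values of -0.08 and 0.01, and 0.01 and -0.09, in the PBRM1 and KDM5C shRNA cells. The unadjusted p of their difference was 0.000507 and 0.00111, and neither passed adjustment over all genes. ZNF394 (0.07 and 0.06 there) and C14ORF85 (-0.0007 and -0.03, against 0.69 in SCR cells) were like them among the rises.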

How the data were processed

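Total RNA of 786-O cells was hybridised to 18 Illumina HumanHT-12 V4 arrays. The deposited values are log2 signals, which the authors made with GenomeStudio and limma: background correction to positive values, log2, quantile normalization, a detection threshold of 0.05, and the mean over the probes of a gene. Versions are not given in the sources used here. Per its methods the study put batch in its linear model and removed it with ComBat only for heatmaps. The number of arrays limits the precision, and 0 columns of other samples were present. The chip is the labels' number, which places 12 arrays on chip 1 and 6 on chip 2.

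Contrasts were fitted with limma 3.58.1 in R 4.3.3 on all 18 arrays, with the 6 groups and the chip (11 residual degrees of freedom), and adjusted by the Benjamini-Hochberg method over 13141 genes. The fold threshold is the one printed on the study's diagrams, and its methods text gives 2. The fit was tested on simulated data. Values per chip are plain differences. The members and the 22 gene lists were chosen with earlier results of these data known, and the lists got no test. Named genes were the 15 largest falls and rises among called genes without overlap after chip removal, called list members, up to 2 other members per list, a fixed set of pathway genes, and called genes of opposite sign in both shRNA contrasts. A few genes that the rule names are not reported here. Of 13141 symbols 10777 are current in RefSeq and 1880 are unique synonyms. Motifs were searched in RefSeq promoters with Python 3.11.15.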

Additional observations from a re-analysis of the deposited data

Results flagged for a closer look

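TMEM17, a membrane protein, was higher with VHL in SCR cells (log2 fold change 0.80, adjusted p = 0.011 by limma). That call was lost without the chip term (adjusted p = 0.0531) and on omission of any SCR array of chip 1 (0.0514 to 0.0753). TMEM17 had a log2 fold change of -0.133 with VHL in KDM5C shRNA cells, where the arrays of the groups lay apart in the opposite direction. Such gaps are common: in SCR cells, after chip removal, the arrays did not overlap for 25.1% of all genes. The single contrast of the SCR and KDM5C shRNA effects was not tested. The test of the difference from the mean of both shRNA contrasts gave an unadjusted p of 0.000967 and did not pass adjustment over all genes.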

How the results depend on the processing

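The counts of called genes moved most with the chip term and the fold threshold. Without the chip term 60 genes were called (47 lower, 13 higher), on chip 1 alone 238 (150 and 88), at 2-fold 40 (34 and 6) and with no fold threshold 420 (249 and 171). With each SCR array left out in turn the count was 79 to 174, with 52 to 111 lower and 27 to 63 higher. The low counts came with VHL+/+ replicate 1 (79), VHL-/- replicate 1 (88) or VHL-/- replicate 2 (91) omitted. Of the 135 genes, 66 stayed called in all 6 cases.

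The median of the HIF target lists was -0.2182 on chip 1, -0.2018 on chip 2, -0.3182 without the dimmest 0.25 of genes and -0.2774 to -0.2156 with an array left out. On chip 2, with 1 array per group and no test, the interferon median was -0.1224 and the inflammatory median -0.0992, and MX2 (0.0158), OAS2 (0.1143) and PARP9 (0.0423) reversed. Genes whose VHL effect differed between SCR and shRNA cells numbered 20 on chip 1 and 0 to 33 with an array left out. The cause was not tested.

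With the replicate number as a replicate block instead of the chip 129 genes were called (84 lower, 45 higher), all among the 135. Same-numbered SCR arrays deviated together before chip removal (r of 0.15, 0.32 and 0.58) and not after it (-0.13, -0.0009 and -0.25). After it, differently numbered arrays of chip 1 gave r of -0.04, so replicates 1 and 2 showed no clear pairing beyond the chip. Replicate 3 is alone on chip 2 in each group, so its pairing cannot be told apart from the chip. Array centring, cyclic loess, trend and robust moderation, the 6 SCR arrays alone and the dimmest 0.25 of genes left out gave 134, 135, 134, 160 and 143 called genes.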
